A study of Mus musculus with 8 samples.

Results

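The genes described here are the translation initiation and elongation factors of the mouse, measured in thymic epithelial cells (TEC), the stromal cells that nurse and select developing T cells. They were chosen by symbol: of the 66 genes whose symbol begins with Eef, or with Eif and a digit from 1 to 6, the 4 eIF2 alpha kinases and the Y-linked eIF2 gamma copy were left out, which left 61 genes of the 27514 genes shared by both gene lists of the study. The rule reads symbols and no measured value, though it was set with earlier results of these data known. One of the 61, Eif2c5, carries an older symbol of another gene family and is annotated as a non-coding RNA, so 60 genes were placed in a role. Single cells were captured as 8 libraries from the thymus of wild-type mice of strain C57 B6 (CD45.2), of either sex. Live EpCAM+ CD45- cells were sorted as total TEC at E13.5, where E marks the embryonic day. Cortical TEC (cTEC, Ly51+ UEA-1-) were sorted at E15.5, E17.5, in the newborn (NB, 0 to 2 days) and in the adult (4 to 6 weeks), and medullary TEC (mTEC, Ly51- UEA-1+) in the adult. Each younger stage is 1 library. Adult cTEC and adult mTEC have 2 libraries each. The study captured its cells as 2 data sets, and no label says which library is in which. From sample titles, the study's methods and the headers of the matrices, replicate 1 of both was put in data set 1 with E13.5, E15.5 and NB, and replicate 2 of both in data set 2 with E17.5; each step within a data set and each data set term below rests on that reading. The number of animals pooled per library is not given in the sources used here.

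Protein synthesis starts when eIF2, loaded with the initiator tRNA, and the scaffold eIF3 sit on the small ribosomal subunit, which eIF4F then brings to the capped end of an mRNA. eIF4F joins the cap-binding eIF4E, the RNA helicase eIF4A and the scaffold eIF4G, and the 4E-BP repressors compete with eIF4G for eIF4E. Once the start codon is found and the subunits join, eEF1A delivers aminoacyl-tRNA, the eEF1B subunits reload eEF1A with GTP, and eEF2 moves the ribosome along. Several of these mRNAs, eEF1A among them, begin with a 5′ terminal oligopyrimidine (TOP) tract that places them under mTOR with the ribosomal proteins, and Myc is known to raise transcription of others through the E-box motif CACGTG. Fetal TEC divide fast and adult TEC slowly, and the study compared the stages with that in view.

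Promoter sequence was read from RefSeq (GRCm38.p6, 250 bases before to 50 bases after each start) to show where members hold an E-box. A promoter entry was found for 47 of the 61 genes, with 61 distinct promoters, and CACGTG, which reads the same on both strands, occurred in 14 of the 61 (23.0%). It occurred in 2349 of all 32851 promoters of that length (7.15%) and in 1307 of the 13530 promoters of genes tested in the age trend below (9.66%). The 14 belonged to 12 genes, and Eif2s1, described below with the Myc-linked genes, was not among them. Windows of 26 bases are printed for the eIF4F factors Eif4e, Eif4g1 and Eif4a1 and for Eif5a, Eef2 and Eif3f, whose levels are described below. Eef2k, Eif1b, Eif3a, Eif3k, Eif4h and Eif5a2 hold an E-box too, and their windows are not printed. The capitals mark the E-box, each window is written in the direction of its gene, and the other windows of Eif4g1 and Eif5a are not shown.
Eif4e, farther from the start, chr3:138527030-138527055, plus strand: cgccagcgacCACGTGatcacttttt
Eif4e, nearer to the start, chr3:138527194-138527219, plus strand: acacgtccgtCACGTGggcaggagcc
Eif4g1, chr16:20672663-20672688, plus strand: cagtgggtgtCACGTGatggggcgga
Eif4a1, chr11:69672597-69672622, minus strand: atcgcctccgCACGTGtaaaggtgct
Eif5a, chr11:69921445-69921470, minus strand: ggggcggggtCACGTGtgtgcgtcat
Eef2, chr10:81176578-81176603, plus strand: ccggcgccgtCACGTGacgcacccaa
Eif3f, chr7:108934337-108934362, plus strand: agatatgattCACGTGgtataaattt
In the GENCODE annotation, the windows of Eef2, Eif3f and Eif4a1 lie before the gene, both Eif4e windows lie in an exon of a transcript that starts earlier, and those of Eif4g1 and Eif5a lie in an intron. A match of these letters is a description of the sequence and does not show that Myc binds there.

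Levels are unique molecular identifier (UMI) counts summed over the epithelial-like cells of a library and scaled to its total (CPM), so each is a share of the RNA of those cells and not an amount per cell. The kit tags 1 end of each RNA, so no correction for gene length was made. The libraries held from 492 to 8350 such cells and from 2151147 to 89998087 UMIs; adult cTEC replicate 1 was the smallest (492 cells) and adult cTEC replicate 2 had 535. The labelled cell types were checked on marker lists: summed cTEC markers were at 13222 and 19900 CPM in the adult cTEC libraries against 1181 and 890 CPM in adult mTEC, and summed mTEC markers were at 9327 and 4947 CPM in adult mTEC. Adult cTEC replicate 1 also held 6200 CPM of mTEC markers, against 1280 CPM in replicate 2, with all 8 genes of that list detected in both, and the younger libraries held from 166 to 906 CPM, with 2 of the 8 at 0 at E15.5. Ccl21a alone gave 5418 and 873 CPM of the adult cTEC sums. The other genes of that list gave 782 and 407 CPM in adult cTEC, against 2884 and 2054 in adult mTEC. The 14 genes of a list of responses to dissociation, none of them at 0 in any library, summed to between 473 and 897 CPM in the 3 embryonic libraries, which were dispersed with trypsin, and to between 5016 and 18785 CPM in the NB and adult libraries, which were digested with Liberase and enriched on Percoll. The highest sums were those of adult cTEC, 18785 and 11084 CPM, against 10709 in the newborn and 9170 and 5016 in adult mTEC, so that this list moves with both the age and the lineage differences below. Markers of mesenchymal cells summed to 511 and 318 CPM in adult cTEC, with 2 of 8 genes at 0 in each, against 4.48 to 30.7 in the younger libraries and 99.7 and 69.1 in adult mTEC. Nearly all of the adult cTEC sums was Dcn, at 500 and 310 CPM. The other genes of that list summed to 11.2 and 7.92 CPM in adult cTEC, 2.44 to 9.13 in the younger libraries and 21.2 and 22.3 in adult mTEC. Thymocyte markers summed to 46.5 CPM, with 1 of 11 genes at 0, and 105 CPM in adult cTEC, against 6.19 to 18.7 in the younger libraries and 35.4 and 35.01 in adult mTEC. A list of 9 myeloid markers summed to 13257 and 13305 CPM in adult cTEC, 516 to 8904 in the younger libraries and 21454 and 17855 in adult mTEC, nearly all of it Cd74, the invariant chain of MHC class II, which TEC also express; the other 8 genes summed to 248 and 35.9 CPM in adult cTEC, 1.52 to 3.85 in the younger libraries and 439 and 559 in adult mTEC. Erythroid markers summed to 349 CPM at E17.5, 0.562 to 43.3 in the other younger libraries, 1.39 and 2.23 in adult cTEC and 120 and 179 in adult mTEC. Parathyroid markers summed to 127 CPM at E13.5 and 90.5 at E17.5, mostly Pth, and to 33.5 and 2.72 in adult cTEC and 36.8 and 62.0 in adult mTEC. The part of any of these in the results was not tested.

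Together the 61 genes made up between 1.21% and 2.11% of the UMIs of a library. Summed, they reached 21105 CPM in E13.5 TEC, 20358 CPM in E15.5 cTEC and 16703 CPM in NB cTEC, but 12104 CPM in replicate 1 of adult cTEC. The second data set gave 17112 CPM at E17.5 against 14247 in replicate 2 of adult cTEC. The 2 adult cTEC libraries were thus the lowest of the 8, while adult mTEC, at 20848 and 19637 CPM, lay near the earliest fetal libraries. Eef1a1 alone gave between 1862 and 5819 of these CPM, and the order of adult cTEC against the rest held without it, at 10241 and 11944 CPM in adult cTEC and between 13026 and 16778 CPM in the other 6 libraries. The elongation factors eEF1 and eEF2 made the largest part of this difference: they went from 9246 and 10139 CPM at E13.5 and E15.5 to 6317 in the newborn and 4206 in adult cTEC replicate 1, and from 7850 at E17.5 to 4872 in adult cTEC replicate 2, beside 9356 and 9007 in adult mTEC. The eIF1, eIF1A, eIF5 and eIF5B genes did not follow, with 2053, 1754, 2016 and 2223 CPM through data set 1 and 1825 and 2703 CPM in data set 2. Ribosomal protein genes, the main users of the same TOP control, took 26.2% of the UMIs at E13.5, 24.6% at E15.5, 15.4% in the newborn and 13.2% in adult cTEC replicate 1, and 26.5% at E17.5 against 19.2% in adult cTEC replicate 2.

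**Figure D1:**
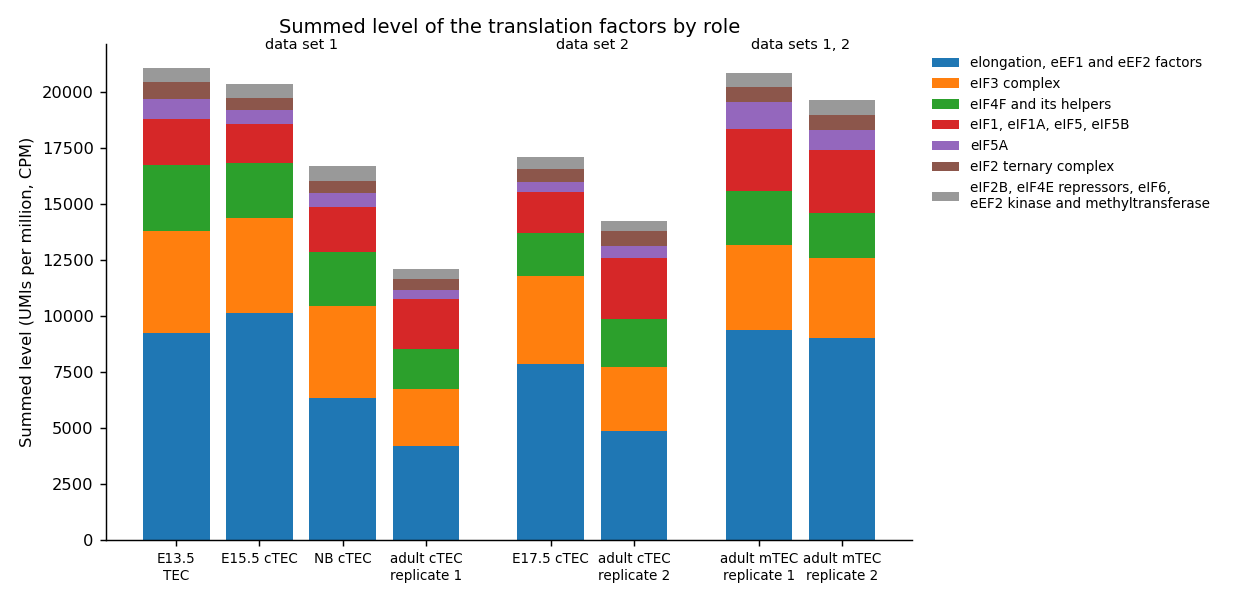
Stacked bars of the summed level (CPM, vertical axis) of the translation factors by role in each of the 8 libraries (horizontal axis), with the libraries of each data set side by side. The adult cTEC bars end at 12104 and 14247 CPM, below all others, and the blue elongation factors are the segment that shrinks most, to 4206 and 4872 CPM.

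Among the elongation factors, Eef1a1 (chr9:78478449-78489151, minus strand), which carries aminoacyl-tRNA to the ribosome, was at 4327 CPM at E13.5, 5376 at E15.5, 2895 in the newborn and 1862 in adult cTEC replicate 1, at 4086 at E17.5 against 2303 in adult cTEC replicate 2, and at 5819 and 5485 in adult mTEC. Eef1b2, a subunit of the exchange factor that reloads it, was at 962, 969, 620 and 337 CPM through data set 1, at 709 and 406 in data set 2, and at 757 and 757 in adult mTEC. Eef1g, another subunit, was at 1882, 1684, 1167 and 700 CPM, then 1277 and 896, with 1091 and 939 in adult mTEC. For these 3 genes both adult cTEC libraries were below all 4 younger libraries and below both mTEC libraries. Eef2 (chr10:81176631-81182498, plus strand), which moves the ribosome by 1 codon, was at 1314, 1446, 1016 and 794 CPM, then at 1265 and 717, and at 1169 and 1323 in adult mTEC, and its groups did not overlap either. Eef1d, the third exchange subunit, ran flatter, at 663, 588, 546 and 446 CPM and then 449 and 468, and its adult cTEC levels lay just above those of mTEC (436 and 440 CPM). Eefsec, which delivers selenocysteine, went the other way in data set 1, from 15.1 and 16.5 CPM to 27.1 and 39.5, but not in data set 2, at 25.4 and 19.8.

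The 14 measured eIF3 genes encode the scaffold that holds the small subunit. Eif3e was at 451 CPM at E13.5, 481 at E15.5, 445 in the newborn and 167 in adult cTEC replicate 1, at 587 at E17.5 against 385 in adult cTEC replicate 2, and at 509 and 391 in adult mTEC. Eif3f was at 621, 598, 601 and 367 CPM, then 891 and 493, with 839 and 753 in adult mTEC. Eif3h was at 504, 485, 401 and 267 CPM, then 388 and 314, with 437 and 377 in adult mTEC. All 3, the members of this complex on the TOP list, were lower in both adult cTEC libraries than in any younger library, and for Eif3e the adult cTEC libraries differed from each other more than replicate 2 did from mTEC. The same absence of overlap with the younger libraries was seen for 8 of the 14 eIF3 genes, Eif3d, Eif3i, Eif3k, Eif3l and Eif3m being the others, where 17.4% of all genes tested had it. Eif3j1 was the exception, at 47.9, 28.5, 25.3 and 106 CPM in data set 1 and at 94.9 and 159 in data set 2, so that adult cTEC was highest. It has a near-identical copy, Eif3j2 (15.1, 5.57, 6.31 and 35.3 CPM, then 2.56 and 6.44), and how reads shared by such copies were assigned cannot be seen in the counts; the copies took different shares in the data sets, Eif3j2 holding from 6.28% to 25.1% of their joint UMIs in data set 1 and from 2.62% to 3.88% in data set 2.

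In eIF4F, the cap-binding Eif4e (chr3:138526179-138559696, plus strand), whose E-boxes are printed above, was at 241 CPM at E13.5, 178 at E15.5, 171 in the newborn and 116 in adult cTEC replicate 1, but at 136 at E17.5 against 161 in adult cTEC replicate 2, with 152 and 107 in adult mTEC. Eif4a1, the main RNA helicase, was at 1061, 680, 756 and 464 CPM, then 519 and 586, with 896 and 680 in adult mTEC. Eif4g1, the scaffold, was at 212, 144, 119 and 109 CPM, then 60.2 and 62.6, with 63.3 and 53.7 in adult mTEC. Eif2s1, the eIF2 subunit whose phosphorylation shuts initiation down, was at 130, 93.5, 102 and 42.8 CPM, then 70.4 and 76.2, with 152 and 113 in adult mTEC. These 4 genes, the ones of the list best known as Myc targets, were each highest at E13.5 among the E13.5 and cTEC libraries, and for none of them were both adult cTEC libraries below all younger ones. Eif4a2, the second helicase, was at 211, 342, 316 and 428 CPM, then 370 and 597, with 409 and 284 in adult mTEC. Eif1, Eif1a, Eif3j1 and Eif4a2 were the 4 members for which both adult cTEC libraries stood above all 4 younger ones. That is 7.02% of the 57 members tested in the age trend below, where 15.6% of all genes tested stood above.

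Among the repressors of eIF4E, Eif4ebp1, the 4E-BP that mTOR inactivates, was at 106 CPM at E13.5, 70.5 at E15.5, 60.4 in the newborn and 29.8 in adult cTEC replicate 1, and at 81.0 at E17.5 against 34.2 in adult cTEC replicate 2, with 57.5 and 58.7 in adult mTEC. Both adult cTEC libraries were below every other library for this gene, on 64 and 138 UMIs. Eif4ebp2 was at 19.0, 7.28, 9.03 and 8.37 CPM in data set 1 and at 25.3 and 23.5 in data set 2, with 9.02 and 29.0 in adult mTEC, so that all 3 libraries of data set 2 were above all 5 of data set 1. Eif4ebp3 had 1 UMI in all libraries together, in adult mTEC replicate 2. Eif5a, which carries the hypusine that relieves stalled ribosomes, was at 921, 633, 638 and 379 CPM, then 438 and 546, with 1187 and 865 in adult mTEC. Its copy Eif5a2 lay between 1.81 and 4.64 CPM everywhere. Eif6, which keeps the subunits apart, was at 197, 186, 269 and 165 CPM, then 160 and 157, with 279 and 301 in adult mTEC, lower in both adult cTEC libraries than in both mTEC libraries.

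In start site selection, Eif1, which keeps the scanning subunit from starting at a wrong codon, was at 867, 857, 1062 and 1277 CPM in data set 1, at 1041 and 1721 in data set 2, and at 1925 and 2012 in adult mTEC. Eif5b, the GTPase of subunit joining, was at 481, 386, 391.6 and 453 CPM, then 323 and 425, with 164 and 197 in adult mTEC. Among the larger scaffolds, Eif3a was at 534, 326, 324 and 263 CPM, then 180 and 149, with 212 and 185 in adult mTEC. Eif1 was thus highest in the adult libraries, Eif5b set the adult lineages apart, and Eif3a stood highest at E13.5.

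Beyond these, the eIF2 subunit genes Eif2s2 and Eif2s3x, Eif2a and Eif2d, which were only grouped with them, and the 5 eIF2B genes, which recharge eIF2 with GTP, stayed between 14.7 and 456 CPM. Over all genes tested in the age trend, both adult cTEC libraries lay below all 4 younger ones for 17.4% of genes and above them for 15.6%. Of the 57 members tested there, 24 (42.1%) lay below and 4 (7.02%) above. By role, 7 of the 8 TOP mRNA genes lay below, all except Eef1d, as did 4 of 7 elongation factors, 5 of 11 genes of eIF4F and its helpers and 1 of 7 genes of start site selection. Of 82 ribosomal protein genes 37 lay below and 0 above. Since the members were chosen with earlier results of these data known, these counts carry no test.

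**Figure D2:**
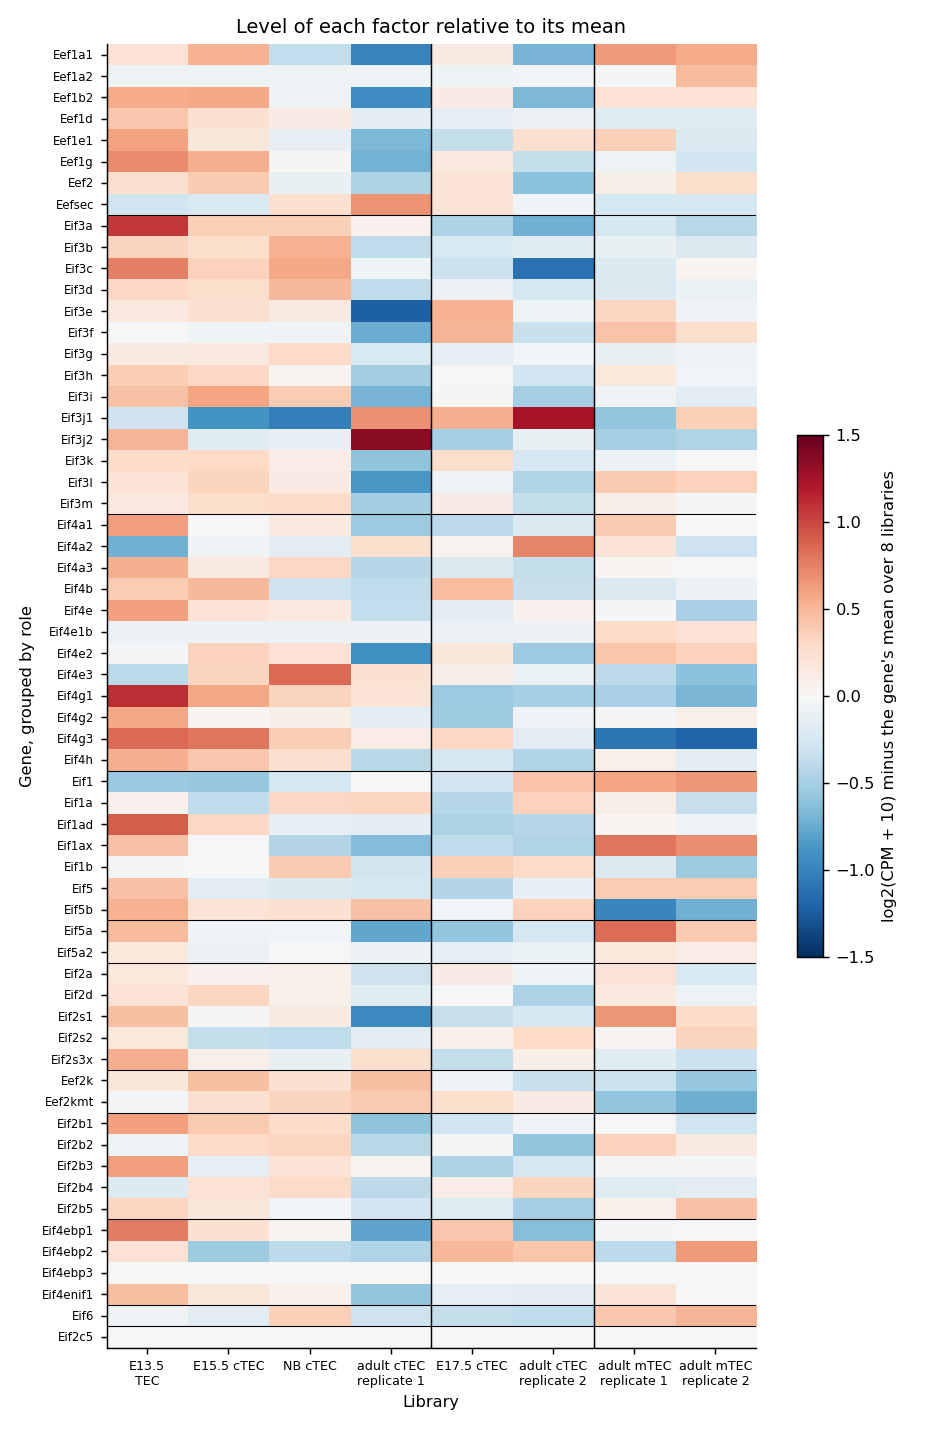
Heat map of the 61 genes (rows, grouped by role with lines between groups) in the 8 libraries (columns), coloured by log2(CPM + 10) minus the mean of the gene over the libraries. The adult cTEC columns are mostly blue, with Eif3j1, Eif4a2 and Eif5b among those red in both and Eif3j2 red in replicate 1, and Eif4ebp3 and Eif2c5, with almost no UMIs, are white throughout.

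The stages were then compared step by step within each data set, where no replicate exists below the adult and no test is possible. A gene was counted as higher or lower past 1.5-fold in CPM + 10, among the 57 members tested in the age trend. From E13.5 to E15.5, 2 members were higher and 8 lower (background 6.01% and 6.93% of genes), with a median log2 ratio of -0.13 against -0.02 over all genes. The 4 Myc-linked genes were all lower, with a median of -0.48, and of the 8 TOP genes 4 were higher and 4 lower, with a median of -0.02. In the cells that were not cycling, as defined below, 1 member was higher and 3 lower (5.17% and 6.78% of genes), and the Myc-linked median was -0.29. From E15.5 to the newborn, 1 member was higher and 3 lower (5.89% and 4.25% of genes), with a median of -0.05 against -0.01. Scaled to totals free of ribosomal protein and mitochondrial genes, 0 were higher and 8 lower (4.62% and 8.24% of genes), with a median of -0.23 against -0.08. Here the roles parted: the median was -0.50 for the elongation factors, 0.00 for eIF3 and 0.03 for the Myc-linked genes (-0.14 with those totals), while all 82 ribosomal protein genes were lower, 63 of them past 1.5-fold. This step also crosses from trypsin to Liberase and Percoll, with the dissociation list going from 473 to 10709 CPM, and the part of that was not tested. From the newborn to adult cTEC replicate 1, 2 members were higher and 26 lower (11.7% and 9.35% of genes), with a median of -0.53 against 0.00. The lower ones came from nearly every role, with 9 of 14 eIF3 genes, 5 of 11 of eIF4F, 3 of 7 elongation factors and 3 of 5 eIF2B genes. From E17.5 to adult cTEC replicate 2, 5 members were higher and 9 lower (8.53% and 5.84% of genes), with a median of -0.07 against 0.01. With the other totals 1 was higher and 16 were lower (7.98% and 9.7% of genes), with a median of -0.20 against -0.05.

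The steps that end in the adult therefore shared some genes and not others. In both, 7 members were lower past 1.5-fold in CPM + 10, from the newborn and from E17.5 in turn, where 2.44% of all genes were. They were Eef1a1 (1.55- and 1.77-fold), Eef1b2 (1.82- and 1.73-fold), Eif3c (1.56- and 1.74-fold), Eif3e (2.57- and 1.51-fold), Eif3f (1.62- and 1.79-fold), Eif4e2 (2.2- and 1.64-fold) and Eif4ebp1 (1.77- and 2.06-fold). Eif3j1 was the only member higher past 1.5-fold in both, at 1.71 and 0.69 log2, where 4.8% of all genes were. The 8 TOP genes had medians of -0.67 and -0.69. The 4 Myc-linked genes were all lower from the newborn, with a median of -0.61, and all higher from E17.5, with a median of 0.14 that became 0.00 with totals free of ribosomal protein and mitochondrial genes, the largest contrast being Eif2s1 at -1.08 and 0.10. Eif5a split the same way, at -0.74 and 0.31. Start stage, capture, cell dispersal and, in adult cTEC replicate 1, the mTEC markers given above, mostly Ccl21a, differ between these steps, and their parts cannot be told apart. The step from E17.5 crosses from trypsin to Liberase and Percoll, with the dissociation list going from 897 to 11084 CPM. The step from the newborn stays with Liberase and Percoll, from 10709 to 18785 CPM. Cells scored as cycling, as defined below, also became rarer with age, from 76.9% at E13.5 through 29.2% at E15.5 and 11.2% in the newborn to 1.42% in adult cTEC replicate 1, and from 15.9% at E17.5 to 9.53% in adult cTEC replicate 2. In that last library 1 cluster held 86.3% of the cycling and 87.6% of the other cells, and the cluster of cell cycle genes held 9.80% of the cycling cells.

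As a test over samples, a slope on the rank of the stage, with the data set as a term, was fitted by edgeR's quasi-likelihood test over the 6 libraries of E13.5 TEC and cTEC. None of the 57 members tested passed an adjusted p of 0.05 in either direction, where 5.15% of all 14285 genes tested rose and 3.07% fell. At an unadjusted p under 0.05 there were 11 members, where 27.9% of all genes were, and DESeq2, which called 11.5% of all genes higher and 9.07% lower, called 1 member higher and 9 lower. The slope was below 0 for 46 of the 57, with a median of -0.17 log2 per stage against 0.00 over all genes tested. Without adult cTEC replicate 1 the median was -0.07 against -0.01. The lowest adjusted p-values were those of Eif4ebp1 (-0.42 ± 0.11 SE, adjusted p = 0.0618), Eef1b2 (-0.37 ± 0.10, 0.0728), Eef1g (-0.32 ± 0.09, 0.0771) and Eef1a1 (-0.36 ± 0.11, 0.0923). Eef2 had a slope of -0.24 ± 0.10 (adjusted p = 0.165), and Eif4e, Eif4a1, Eif4g1 and Eif2s1 had slopes between -0.22 and -0.16, with adjusted p from 0.186 to 0.321. All 8 TOP genes had slopes below 0 (median -0.26). With scaling by the genes other than ribosomal protein and mitochondrial genes, 7 members fell, Eef1a1 (adjusted p = 0.0451), Eef1b2, Eef1g and Eif4ebp1 among them. All genes moved down with that scaling too, to a median of -0.07, with 6.62% of them falling.

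Between adult cTEC and adult mTEC, Eef1a1, Eif1ax, Eif4e2, Eif2s1 and Eif5a were among the factors lower in cTEC, while Eif5b, Eif4g3, Eef2kmt and both Eif3j genes were higher. By edgeR's quasi-likelihood test on the 4 adult libraries with the data set as a term, 5 of 58 members tested were higher in cTEC and 9 lower, where 10.9% of all genes tested were higher and 20.8% lower. The difference was below 0 for 43 of the 58, with a median of -0.44 log2 against -0.14 over all genes tested. The 9 include Eif4e1b, which has no UMI in cTEC and passed the filter on low counts through mTEC, so that its direction was set by the filter; without it 8 of 57 were lower. Cycling cells, defined below, made up 10.9% and 15.9% of adult mTEC against 1.42% and 9.53% of adult cTEC. In the other cells alone the median was -0.28 against -0.13 over all genes, 5 members were higher and 9 lower (11% and 22.5% of genes), and Eif5a, at 373 and 535 CPM in cTEC against 1018 and 704 in mTEC, was at -0.97 log2 and did not pass (adjusted p = 0.0645). Eef1a1, at 1862 and 2303 CPM in cTEC against 5819 and 5485 in mTEC, was lower, with a difference of -1.52 ± 0.46 log2 (SE, adjusted p = 0.00892). Eef1b2 was lower too (-1.11 ± 0.40, adjusted p = 0.0321). Both cTEC libraries lay below both mTEC libraries for both genes.

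Of the start site genes, Eif1ax, the X-linked copy of eIF1A that helps the scanning subunit, was at 56.7 and 66.3 CPM in cTEC against 173 and 160 in mTEC (-1.51 ± 0.38, adjusted p = 0.00213). Eif5b, the GTPase that joins the subunits, was at 453 and 425 CPM against 164 and 197 (1.22 ± 0.39, adjusted p = 0.0143). These neighbours in initiation differed in opposite directions. In the group of eIF4F and its helpers, Eif4e2, a cap-binding relative linked to repression, was at 83.2 and 111 CPM against 226 and 214 (-1.26 ± 0.39, adjusted p = 0.0103). Eif4g3, the second eIF4G, was at 57.6 and 45.5 CPM against 19.5 and 17.1 (1.42 ± 0.39, adjusted p = 0.00472). Eif4e, Eif4a1 and Eif4g1 did not pass, at 0.04 ± 0.39, -0.65 ± 0.41 and 0.43 ± 0.37.

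Eif2s1 was at 42.8 and 76.2 CPM in cTEC against 152 and 113 in mTEC (-1.26 ± 0.40, adjusted p = 0.014), and Eif5a at 379 and 546 CPM against 1187 and 865 (-1.23 ± 0.42, adjusted p = 0.0233). Eif3l, an eIF3 subunit, was at 72.5 and 101 CPM against 189 and 183 (-1.19 ± 0.38, adjusted p = 0.0151), and Eif2b2 at 33.9 and 29.0 CPM against 64.4 and 54.1 (-0.98 ± 0.38, adjusted p = 0.0456). Eef2kmt, the methyltransferase of eEF2, was at 52.1 and 41.3 CPM against 21.3 and 18.4 (1.16 ± 0.39, adjusted p = 0.0213). Eif3j1 was at 106 and 159 CPM against 37.7 and 82.1 (1.15 ± 0.38, adjusted p = 0.0166). Eif3j2 passed too (2.39 ± 0.55, adjusted p = 0.000679), but on 76 and 26 UMIs, at 35.3 and 6.44 CPM against 2.53 and 3.0, so that the size rests on adult cTEC replicate 1, without which the difference was 1.21 (adjusted p = 0.118). Eif4e1b, a germ-line relative of eIF4E, had 0 UMIs in both cTEC libraries and 49 and 159 in mTEC, at least 5.11-fold lower against a floor of 3 UMIs over both cTEC libraries.

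Without a test, the CPM of both cTEC libraries lay below both mTEC libraries for 32 of the 58 members and above them for 11, where 37.3% and 30.4% of all genes tested did so. Without Eif4e1b it was 31 of 57 and 11. By role, they lay below for 8 of 14 eIF3 genes, 6 of 11 of eIF4F and its helpers other than Eif4e1b, both eIF5A genes, Eif6 and 7 of 8 TOP genes. Ribosomal protein genes had a median of -0.44 in the same fit, with 3 lower and 2 higher of 82. These calls depend on single libraries. In fits that left out 1 library and had no data set term, the lone sample of a cell type is assumed to vary like the other cell type. Without adult cTEC replicate 1, the library with mTEC markers, 1 of 59 members was higher and 2 were lower (4.65% and 11.6% of all genes), with a median of -0.23 against -0.31 over all genes, and Eef1a1 (-1.29, adjusted p = 0.0556) and Eif2s1 (-0.79, adjusted p = 0.124) did not pass. Without adult cTEC replicate 2, 2 were higher and 7 lower (5.35% and 8.09% of genes), with a median of -0.69 against -0.31. Without adult mTEC replicate 1, 1 was higher and 1 lower (5.0% and 12.3%), and without replicate 2 edgeR called 0 of 58 (1.66% and 5.58%), of which 7 had an unadjusted p under 0.05, as 22.5% of all genes had. When the cTEC libraries were limited to cells in which Psmb11 or Prss16, genes that mark the cortex, had a UMI (325 of 492 and 426 of 535 cells), Eef1a1, Eif1ax and Eif5b still passed, and Eif2s1 (adjusted p = 0.0595) and Eif5a (0.0505) did not; that limit was added after the data were seen.

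**Figure D3:**
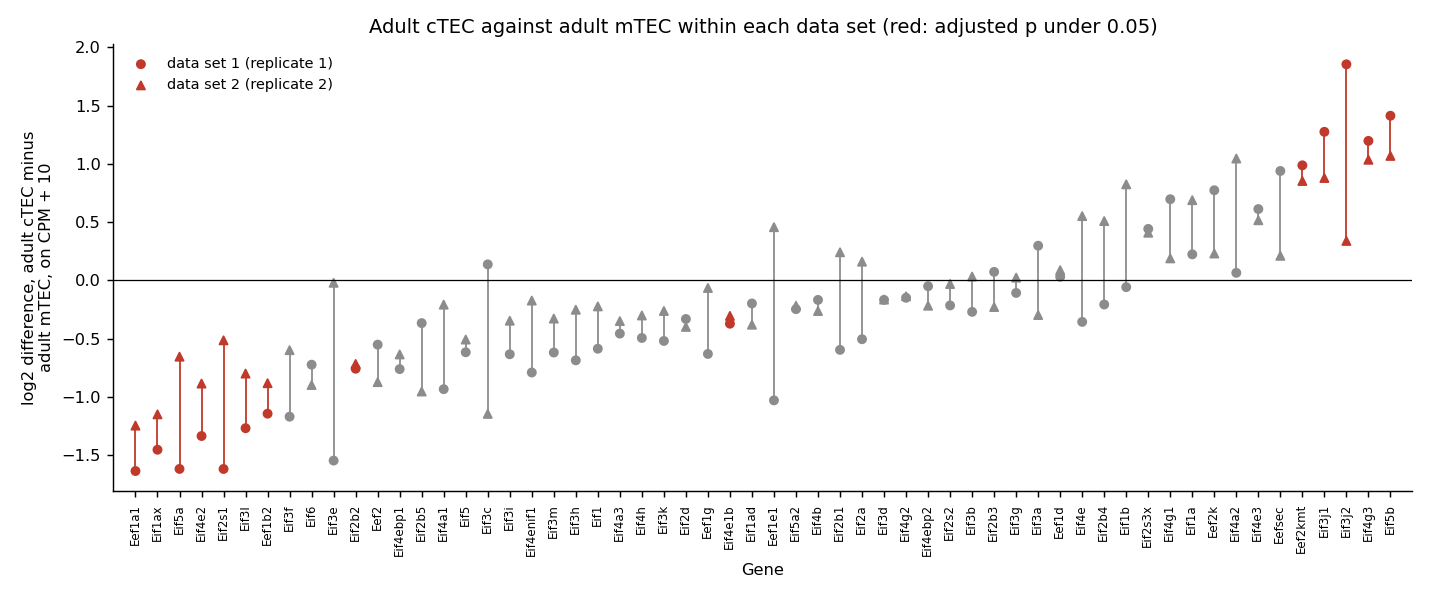
Log2 difference of adult cTEC minus adult mTEC on CPM + 10 (vertical axis) for the 58 members tested (horizontal axis, sorted), with a circle for data set 1, a triangle for data set 2 and red for an adjusted p under 0.05 by edgeR. Most genes lie below 0, Eef1a1 and Eif1ax do so clearly in both data sets, Eif5b and Eif4g3 lie above 0 in both, and Eif3e, Eif3c and Eef1e1 differ widely between the data sets.

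Cycling cells were compared with the other cells of their own library, since the share of cycling cells changes with age. Cells counted as cycling when their proliferation score, from 96 genes of S phase and of G2 and M phase that hold no member, was above 0; 2384 of 25322 cells lay within 0.05 of that limit. With the library as a block, edgeR's quasi-likelihood test over the 8 libraries found 7 of 59 members tested higher in cycling cells and 3 lower, where 9.5% of all genes tested were higher and 21.1% lower. The median was 0.06 log2 against -0.21 over all genes tested. These counts depend on the tool and the scaling: DESeq2 called 11 higher and 9 lower (9.6% and 16.6% of genes), library totals 12 and 2 (10.5% and 18.8%), totals free of ribosomal protein and mitochondrial genes 14 and 2 (11% and 17.2%), and edgeR without both adult cTEC libraries 6 and 0 (9.01% and 13.9%). Cycling cells also held more UMIs, with medians from 7342 to 18005 per cell against 3875 to 10403 in the other cells, and the part of this was not tested.

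Among the 7 called higher, the largest estimate was that of Eif1ad, an eIF1A-like protein, at 88.7 CPM in cycling against 58.1 in other cells at E13.5 and 49.0 against 34.9 in adult mTEC replicate 2 (0.72 ± 0.09 SE, adjusted p = 0.000119), higher in 8 of 8 libraries. Eif4a3, the helicase that marks exon junctions, rose by 0.55 ± 0.09 (adjusted p = 0.000583), Eif4e by 0.40 ± 0.08 (0.0021), Eif1ax by 0.38 ± 0.09 (0.00588) and Eif5a by 0.45 ± 0.12 (0.0143), each higher in 8 of 8 libraries. For Eif4e the cycling and other cells held 252 and 187 CPM at E13.5, 212 and 159 at E15.5, 203 and 166 in the newborn, and 161 and 131 at E17.5. Adult cTEC replicate 1 held 157 against 115 CPM, on 9 UMIs in its cycling cells, and replicate 2 held 231 against 151. Adult mTEC held 193 against 143 CPM in replicate 1 and 144 against 95.2 in replicate 2. Eef1e1, which sits with the aminoacyl-tRNA synthetases, and Eif2s1 rose by 0.53 ± 0.14 (adjusted p = 0.0117) and 0.42 ± 0.12 (0.0172), each higher in 7 of 8 libraries. All 4 Myc-linked genes had estimates above 0, with a median of 0.36, and Eif4e and Eif2s1 passed. The 8 TOP genes had a median of -0.05.

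Eif4a2 (-0.48 ± 0.09, adjusted p = 0.00148) and Eif3f (-0.30 ± 0.08, 0.0173) fell and were lower in 8 of 8 libraries each. Eif3e (-0.20 ± 0.07, adjusted p = 0.0476) was lower in 6 of 8 libraries; it did not pass with library totals (adjusted p = 0.114) or with totals free of ribosomal protein and mitochondrial genes (0.234). Without the adult cTEC libraries, which held 7 and 51 cycling cells, none of these 3 passed, at -0.33 log2 for Eif4a2 (adjusted p = 0.0644), -0.20 for Eif3f (0.343) and -0.17 for Eif3e (0.391), though each was still lower in all 6 remaining libraries. The other helicase, Eif4a1, was at 0.32 ± 0.12 (adjusted p = 0.0589).

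The difference between cycling and other cells was larger in adult mTEC than in the younger libraries. Cycling and other cells came from partly different clusters in the younger libraries and in adult mTEC alike. A single cluster held 33.5% of the cycling and none of the other cells at E13.5, 59.2% and 0.0397% at E15.5, 81.8% and 1.25% in the newborn and 74.2% and 0.0996% at E17.5. In adult mTEC replicate 1, a cluster led by genes such as Tmem158, Fezf2 and Aire held 72.1% of the cycling and 16.4% of the other cells. In replicate 2, a cluster led by cell cycle genes held 47.3% of the cycling cells and none of the others. The part of this in the difference was not tested. On CPM + 10, the median member was higher in cycling cells by 0.23 and 0.26 log2 in the adult mTEC libraries, with 46 of 59 members above 0 in each, and all genes tested had medians of -0.12 and -0.10 there. In the fetal and NB libraries the median member was between -0.02 and 0.07. The summed members were at 24211 CPM in cycling against 20152 in other cells of adult mTEC replicate 1 and at 22873 against 18650 in replicate 2, while the pairs were 21125 and 21007 at E13.5, 20123 and 20487 at E15.5, 16520 and 16730 in the newborn and 17278 and 17073 at E17.5. A test of this difference was added after it was seen: an interaction term in edgeR over the 6 libraries other than adult cTEC called 38 of 59 members, all of them higher in adult mTEC, where 23.2% of all 17144 genes tested were called in either direction, 2660 higher and 1320 lower. At an unadjusted p under 0.05 there were 44 members, where 34.7% of all genes were. Without adult mTEC replicate 1 or 2, 1 adult mTEC library is left, and its spread has to be taken from the other libraries. The median member was then at 0.32 and 0.34 log2 against -0.27 and -0.33 over all genes, beside 0.60 against 0.08 with both. In the fit of all 6 libraries ribosomal protein genes did the same, 78 of 83 being called higher. Named genes and the dependence on scaling are given in the closing observations.

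**Figure D4:**
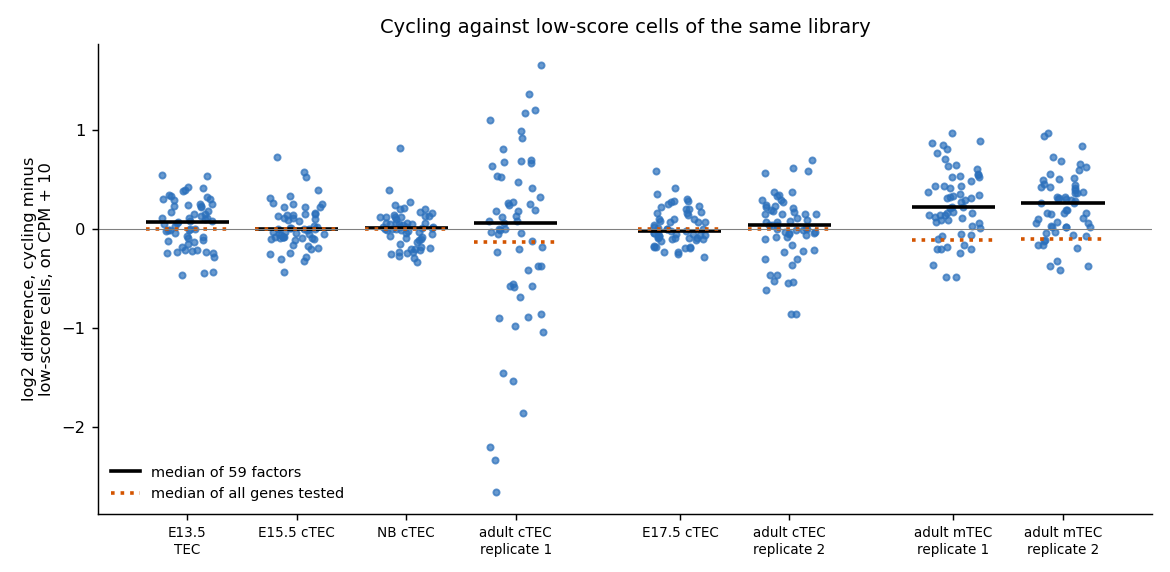
Log2 difference of cycling minus other cells on CPM + 10 (vertical axis) of 59 members (points) in each library (horizontal axis), with a black line at their median and a dotted line at the median of all genes tested. The points sit mostly above 0 in both adult mTEC libraries (medians 0.23 and 0.26) and around 0 elsewhere, and they scatter most in adult cTEC replicate 1, which held 7 cycling cells.

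The balance of gene copies does not depend on scaling, since both copies are counted in the same library. Eif4a2 held 16.6% of the joint UMIs of Eif4a1 and Eif4a2 at E13.5 (exact 95% binomial interval 16.02 to 17.13), 33.5% at E15.5, 29.5% in the newborn and 48.0% (45.7 to 50.3) in adult cTEC replicate 1. The share in the second data set was 41.6% (41.3 to 42.0) at E17.5 and 50.4% (49.0 to 51.9) in adult cTEC replicate 2, and in adult mTEC 31.3% and 29.5%. Both adult cTEC libraries were thus above all other libraries. Within libraries the share was lower in cycling than in other cells, at 15.3% against 23.5% at E13.5, 26.9% against 37.1% at E15.5 and 17.4% against 35.5% in adult mTEC replicate 1, and among the other cells alone the adult cTEC libraries were still highest, at 48.4% and 51.5%. The intervals cover counting error only.

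Eif1ax held 50.2% of the joint UMIs of Eif1a and Eif1ax at E13.5, 50.4% at E15.5, 30.0% in the newborn and 26.4% (22.4 to 30.7) in adult cTEC replicate 1, 44.0% at E17.5 and 29.3% (26.4 to 32.4) in adult cTEC replicate 2. In adult mTEC it held 56.4% and 62.6%, the highest of the 8. Eif1b held 10.9%, 11.3% and 12.1% of Eif1 and Eif1b in the younger libraries of data set 1, 11.98% at E17.5, 6.44% and 7.28% in adult cTEC, and 4.56% and 3.45% in adult mTEC, so that the younger, adult cortical and adult medullary libraries formed 3 ranges that did not overlap. Eif4g3 held from 34.6% to 52.9% of Eif4g1 and Eif4g3 in the cTEC libraries, 32.7% at E13.5 and 23.5% and 24.1% in adult mTEC. With 2 libraries against 2, an exact permutation test cannot go below p = 0.33, so none was made.

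**Figure D5:**
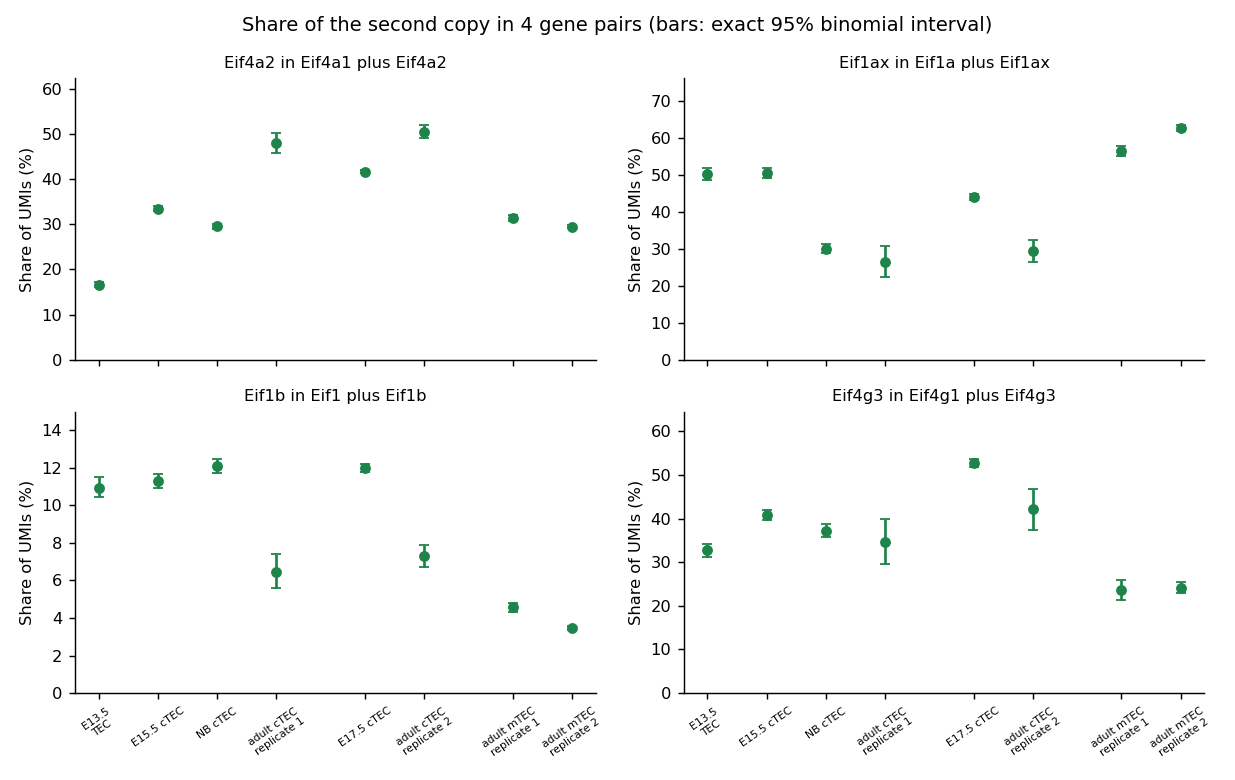
Share of the second copy in the joint UMIs of 4 gene pairs (vertical axis, percent) in each library (horizontal axis), with exact 95% binomial intervals as bars. The Eif4a2 share is highest in adult cTEC (48.0% and 50.4%), and the Eif1ax share is lowest there (26.4% and 29.3%) and highest in adult mTEC (56.4% and 62.6%).

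A few members were barely detected. Eef1a2, the eEF1A of muscle and neurons, had 0 UMIs at E13.5, at E15.5, in the newborn and in adult cTEC replicate 1, 1 in E17.5 cTEC, 1 in adult cTEC replicate 2, and 6 and 318 in adult mTEC (0.361 and 4.72 CPM), so that its medullary signal comes almost wholly from replicate 2. In adult cTEC replicate 1, 0 UMIs allow up to 1.39 CPM at a limit of 3 counts, so a level like that of mTEC replicate 1 was not detectable there. Eif2c5 had UMIs in adult mTEC replicate 2 alone, at 0.0297 CPM. The age trend tested 57, the adult comparison 58 and the cycling comparison 59 of the 61 genes after the filter on low counts.

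The wider pathway was read from a list of 33 genes: the eIF2 alpha kinases, mTOR and its partners, poly(A)-binding, release and recycling factors, and eIF5A-modifying enzymes. In the age trend 2 rose and 0 fell by edgeR's quasi-likelihood test, where 5.15% and 3.07% of all genes did: Ddit3, the stress factor CHOP (0.55 ± 0.08 per stage, adjusted p = 0.0146), and Eif2ak2, the RNA-sensing kinase PKR (0.55 ± 0.12, 0.0395). Their levels were 13.1, 15.1, 32.5 and 63.2 CPM for Ddit3 and 17.9, 21.3, 73.9 and 82.3 CPM for Eif2ak2 through data set 1, with 20.2 and 41.8, and 29.0 and 38.6, in data set 2. The dissociation genes given above were high in the same libraries, and their part was not tested. In adult cTEC against mTEC 3 were higher and 0 lower, where 10.9% and 20.8% of all genes were: Pdcd4, an inhibitor of eIF4A, at 417 and 237 CPM against 63.3 and 87.7 (2.01 ± 0.41, adjusted p = 0.00015), Dhx29, a helicase of the scanning subunit, at 44.6 and 43.8 CPM against 9.14 and 15.2 (1.83 ± 0.41, 0.000555), and Paip1, a partner of the poly(A)-binding protein (1.31 ± 0.38, 0.00693). In cycling cells, where 9.5% of all genes rose and 21.1% fell, Pabpc4, Gspt1 and Rps6kb1 rose, and Mknk1, a kinase of eIF4E (-0.74 ± 0.11, adjusted p = 0.000328), Ddit3 and Pdcd4 fell.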

How the data were processed

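The authors captured cells with the Chromium Single Cell 3′ v2 kit and made UMI counts per gene and cell with Cell Ranger. The submitters' processing notes name bcl2fastq 2.17, STAR 2.5.1b, Cell Ranger 2.0.1 and build mm10, whereas headers in the second data set give version 3.0.1. The deposited matrices hold raw counts. Cells with over 5% mitochondrial UMIs or over 5000 genes were left out (25750 of 28334 cells stayed), cells were clustered per data set (leidenalg 0.10.2), and 428 cells of thymocyte-, parathyroid- and thyroid-like clusters were removed. No doublet caller was run. Counts were summed per library, filtered with filterByExpr, scaled by TMM and tested with edgeR 4.0.16 (R 4.3.3), with Benjamini-Hochberg adjustment over all genes tested. The age trend, cTEC against mTEC and cycling fits were checked on simulated data, where the age trend and cycling fits made more false calls than the nominal rate. Calls of those fits, such as Ddit3 and Eif2ak2 with age and Eif3e in cycling cells, therefore carry more doubt than their adjusted p shows. The interaction fit, the clustering and the stage steps were not checked in this way. CPM intervals were exact Poisson intervals and, like all intervals here, cover counting error only. At most 1.17% of the barcodes of a library recurred in another. Depth ranged from a median of 3996 to 11386 UMIs per cell. The labels put adult libraries in 1 group without replicate numbers, so the spread between libraries may be technical. The p-values do not measure spread between replicates of a stage. In the age trend, with 1 library per younger stage, they measure mostly departure from a straight line over stage rank. In cTEC against mTEC they measure how the lineage difference varies between the data sets, and in the cycling fit how the cycling difference varies between libraries. Members and gene lists were chosen with earlier results of these data known. Named were a fixed set of 19 genes and up to 8 members past the threshold in each direction per test, those of largest change. Alternatives were another scaling, filter and tool (DESeq2 1.42.0), other cell sets and left-out libraries. The growth protocol in the labels names another tissue than the tissue label, thymus.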

Additional observations from a re-analysis of the deposited data

Results flagged for a closer look

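The difference between cycling and other cells was larger in adult mTEC than in the fetal and NB libraries for 38 of the 59 members tested, by an interaction term in edgeR's quasi-likelihood test over 6 libraries that was added after the pattern was seen, and for 16 and 15 members without adult mTEC replicate 1 or 2 (5.02% and 2.95% of all genes). The largest differences were those of Eif3b (1.19 log2), Eef1e1 (1.09), Eif5a (1.05), Eif4a1 (1.0), Eif2b1 (0.98), Eif4h (0.95), Eif2s1 (0.93) and Eif3c (0.91). Eif3b, the RNA-binding core of eIF3, was at 150 CPM in cycling against 91.9 in other cells of adult mTEC replicate 1 and at 131 against 83.0 in replicate 2, and at 146 against 124 at E13.5, but at 123 against 142 at E15.5, 132 against 169 in the newborn and 83.4 against 95.6 at E17.5. Eif5a was at 2004 against 1018 CPM and 1393 against 704 in adult mTEC, and at 973 against 664 at E13.5, 708 against 592 at E15.5, 687 against 631 in the newborn and 511 against 421 at E17.5. By role, 13 of 14 eIF3 genes, 6 of 8 elongation factors, all 8 TOP genes and all 4 Myc-linked genes were called higher. Of the 3 eIF4E repressors tested, 0 were. In the same fit, 2660 of all 17144 genes tested were called higher and 1320 lower. These counts, and the 38 of 59 members, are those with TMM scaling. Fewer members were called with DESeq2's size factors or library totals, as given below, and no counts by role are given for those.

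The size depends on the scaling, because the median of all genes tested moved with it, from 0.08 log2 with TMM to -0.23 with DESeq2's size factors in edgeR and -0.32 with library totals. The median member was at 0.60, 0.32 and 0.23, that is, above the median of all genes under each. Of all genes called, 66.8% were higher with TMM, 40.5% with those size factors and 29.1% with library totals, where the members called higher numbered 38, 30 and 23 of 59, beside 2660, 1373 and 935 of all 17144 genes. Adult mTEC cells with a high score held a median of 16526 and 18005 UMIs against 8895 and 10403 in the other cells, a wider gap than in the fetal and NB libraries. The part of this gap was not tested.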

How the results depend on the processing

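The age trend called 0 members; with DESeq2 it called 1 higher and 9 lower, with scaling free of ribosomal protein and mitochondrial genes 7 lower, with library totals 1 lower (3.31% of all genes) and without E13.5 TEC 1 lower (2.06%), each time out of a fit in which 43 or more members had slopes below 0. Without adult cTEC replicate 1 the trend called 24 genes in all against 1174, so it says little about any member. In adult cTEC against mTEC, DESeq2 called 3 members higher (6.01% of all genes) where edgeR called 5, and leaving out 1 adult library gave between 0 and 2 higher and between 0 and 7 lower. In cycling cells, members higher and lower were 7 and 3, 11 and 9 with DESeq2, 5 lower with DESeq2's size factors in edgeR (23.9% of all genes), 12 higher with library totals, 14 higher with scaling free of ribosomal protein and mitochondrial genes, and 0 lower without both adult cTEC libraries. For the interaction, library totals gave 23 higher, with 5.45% of all genes higher, leaving out 1 library gave between 15 and 45 higher (16 and 15 without adult mTEC replicates 1 and 2, with 5.02% and 2.95% of all genes, and 45 without E13.5 TEC, with 22.6%), and 1 member was lower with DESeq2, with its size factors in edgeR, with library totals and with the other scaling (7.17%, 11.8%, 13.3% and 10.7% of all genes), and between 0 and 1 with a library left out. The median step from E15.5 to the newborn was -0.23 and that from E17.5 to the adult -0.20 with scaling free of ribosomal protein and mitochondrial genes. Slopes near 0 changed sign for Eif6 (-0.0131 in low-score cells, -0.00492 without the data set term, -0.0110 without a filter, -0.0591 with the scaling free of ribosomal protein and mitochondrial genes, -0.0348 without E13.5), Eif4ebp2 (0.0161 without the data set term, 0.0116 without E13.5) and Eif5a2 (0.0555 without E13.5). Causes were not tested. The library totals, the Psmb11 or Prss16 limit and the removal of a haemoglobin-led cluster were chosen after seeing the data. The labels carry no replicate numbers, so no replicate block was fitted; the data set term already sets each adult cTEC library beside the mTEC library of its data set, and without it 4 members were higher and 6 lower (8.47% and 18.1% of all genes). Adult cTEC depth (492 and 535 cells) limits every contrast that uses it.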
